A study of Mus musculus with 6 samples.

Results

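Retinoid handling genes are the genes whose products take up vitamin A, carry it, turn it into retinoic acid and break retinoic acid down. Of these, 9 were followed here: the retinaldehyde dehydrogenase genes Aldh1a1, Aldh1a2, Aldh1a3 and Aldh1a7, the binding protein genes Rbp7, Crabp1 and Crabp2, the uptake receptor gene Stra6 and the breakdown enzyme gene Cyp26b1. They were chosen by name and role, with earlier results of these data known. The value of each was read from its probeset with the highest mean among the probesets that carry 1 gene symbol. Each of the 9 has 1 such probeset, and they make 9 of the 19937 genes measured in this way. No filter on low values was applied, so all 9 were tested.

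Gene expression was measured in gonadal white adipose tissue (GWAT) of male mice aged 4 months on a chow diet. Leptin-deficient ob/ob mice were compared with mice that lacked both leptin and Fsp27 (ob/ob/Fsp27-/-), so both groups lack leptin and the comparison gives the effect of Fsp27 loss on the obese background. Fsp27, encoded by Cidec, coats lipid droplets and helps them to fuse in adipocytes. According to the methods of the study, the mice were on a C57BL/6J background, Fsp27-null mice were crossed with leptin heterozygotes, and every array held RNA combined from several mice. Fsp27 is absent from the whole animal in this model, not only from fat. There were 3 GeneChip Mouse Gene 1.0 ST arrays per genotype and 6 in total, an array was taken as 1 replicate, and the numbers 1 to 3 only name the arrays within a genotype.

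Values were deposited on the log2 scale after the Robust Multi-array Average (RMA) algorithm and ranged from 2.39 to 13.57, with array medians of 6.02 to 6.10. Arrays correlated at r of 0.988 to 0.994 within a genotype and 0.943 to 0.965 between genotypes. Genotypes were compared with limma, and a call for ob/ob/Fsp27-/- mice, higher or lower, needed a Benjamini-Hochberg adjusted p under 0.05 and a log2 difference of at least 0.5 in size. Cidec, the targeted gene, read 11.49 to 11.98 in ob/ob and 11.34 to 11.53 in ob/ob/Fsp27-/- mice, a log2 difference of -0.29 (SE 0.13, limma adjusted p = 0.157). The place of its probes relative to the knocked out part is not given in the sources used here, so this probeset does not check the genotype, and the directions below rest on the labels. The precision of each value is limited by 3 arrays per genotype.

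Vitamin A reaches tissues as retinol bound to a plasma carrier, or as retinyl esters and carotenoids in lipoproteins. Inside cells retinol is oxidized reversibly to retinaldehyde by retinol and alcohol dehydrogenases, and retinaldehyde is oxidized irreversibly to retinoic acid by the Aldh1a enzymes. Retinoic acid binds nuclear receptors of the RAR family, which pair with RXR partners, and Cyp26 enzymes break it down. White fat stores retinyl esters in its lipid droplets, and Aldh1a1 is known as the main retinaldehyde dehydrogenase of white adipocytes.

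The sequence just upstream of the start site is shown for Aldh1a1 and Aldh1a7, neighbouring paralogs on chromosome 19 whose values are compared below, and for Aldh1a2 on chromosome 9, the member that passed the test. RefSeq promoter windows on build GRCm38.p6 were found for 7 of the 9 members, with 11 start sites in all. The last 110 bases before the start are printed 5′ to 3′ on the gene's own strand, with the CCAAT box and the octamer ATGCAAAT, a binding site of POU factors, in capitals. For Aldh1a1 the window is that of its second listed start site, at chr19:20601858-20601967 on the plus strand. The Aldh1a7 window lies at chr19:20727557-20727666 on the minus strand and the Aldh1a2 window at chr9:71215679-71215788 on the plus strand.
Aldh1a1: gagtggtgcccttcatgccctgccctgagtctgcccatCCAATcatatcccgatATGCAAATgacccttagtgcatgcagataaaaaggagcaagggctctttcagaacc
Aldh1a7: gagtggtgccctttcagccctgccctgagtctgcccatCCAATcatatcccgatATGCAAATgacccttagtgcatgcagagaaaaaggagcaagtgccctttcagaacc
Aldh1a2: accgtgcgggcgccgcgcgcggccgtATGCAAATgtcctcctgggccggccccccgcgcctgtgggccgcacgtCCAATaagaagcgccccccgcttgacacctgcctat

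The Aldh1a1 and Aldh1a7 windows were identical at 104 of 110 positions without gaps (94.5%). The Aldh1a2 window matched that of Aldh1a1 at 22 positions (20%) and that of Aldh1a7 at 23 (20.9%). Searched on both strands in the 250 bases before each of 32851 mouse start sites, the octamer was found in 526 windows (1.6%). It was found in 3 of the 11 member windows, those printed above, of which the Aldh1a1 and Aldh1a7 copies are one shared stretch. In those paralogs its last base lay 48 bases before the start and in Aldh1a2 76 bases. CCAAT was found in 33.8% of all windows and in 4 member windows, the fourth being a Stra6 window. The hexamer AGGTCA, which retinoic acid receptors bind as spaced repeats, was found in 14% of all windows and in 0 of the 11 member windows. Only these exact letters were searched, and 0 of 11 windows does not set the members apart from that share. Direct repeats of the hexamer 1, 2 or 5 bases apart were in 11, 3 and 3 of the 32851 windows and in 0 member windows. They are too rare for that 0 to be read as a trait of the members. A match is a run of letters in these windows, and binding was not measured.

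Among the 9 retinoid handling genes, Aldh1a2 fell in ob/ob/Fsp27-/- mice and no other passed the test in either direction. Thus 0 of 9 were called higher against 9.58% of all genes (1910 of 19937), and 1 of 9 (11.1%) was called lower against 10.8% (2158 genes). Over both directions 20.4% of all genes were called, and a count of 1 among 9 genes does not set the members apart from that share. At an unadjusted p under 0.05 limma gave 3 of the 9, Aldh1a2, Rbp7 and Crabp2, against 7991 of the 19937 genes. The values of the genotypes did not overlap for 5 of the 9, 4 with higher and 1 with lower values in ob/ob/Fsp27-/- mice. Over all genes this share was 46%, with 5049 genes higher and 4124 lower. The median log2 difference over the 9 was 0.17, beside 0.058 over all genes.

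**Figure D1:**
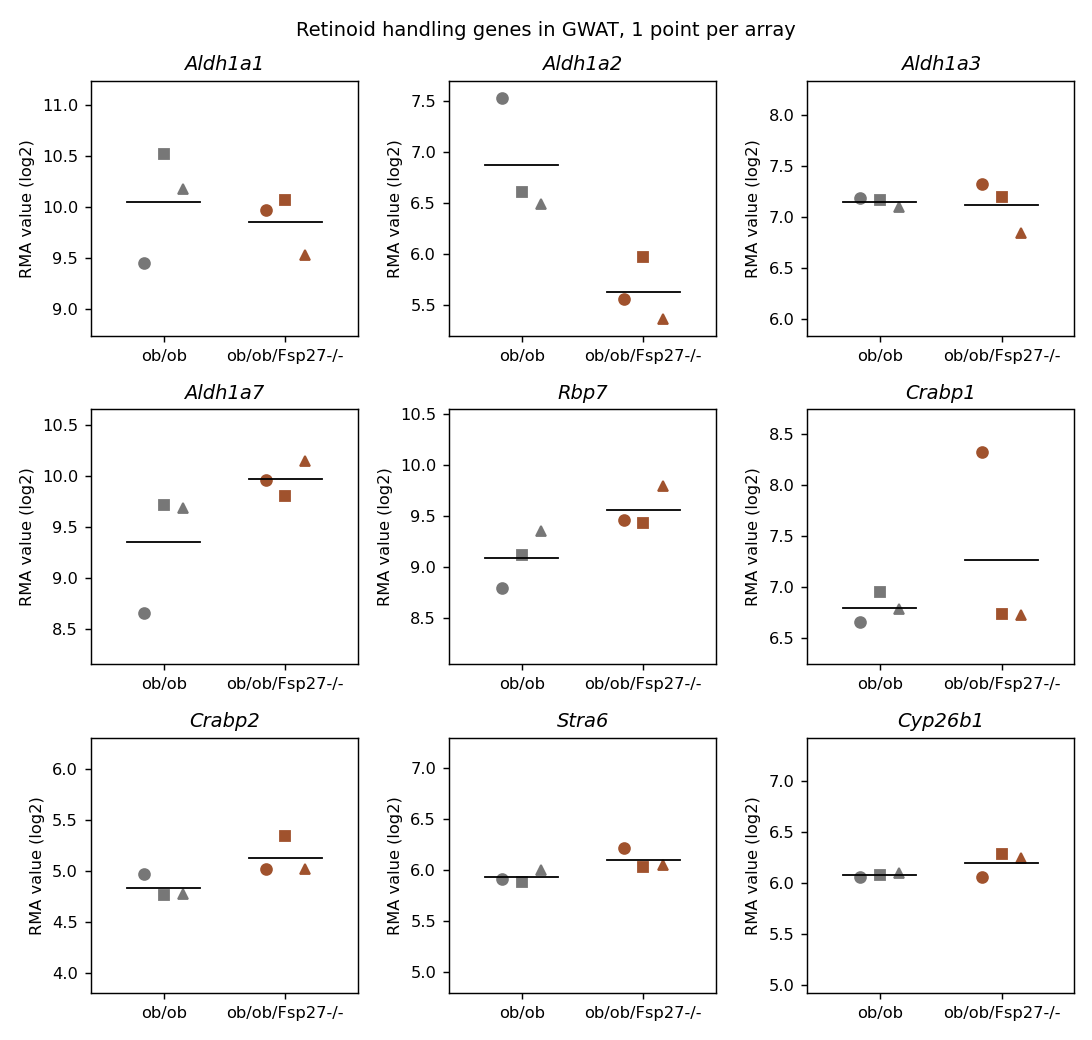
RMA values (log2, vertical axis of equal span in each panel) of the 9 retinoid handling genes in GWAT, with 1 point per array (circle, square and triangle for arrays 1, 2 and 3), ob/ob in grey, ob/ob/Fsp27-/- in brown and a line at the mean of 3 arrays. For Aldh1a2 the ob/ob arrays sit at 6.49 to 7.54 and the ob/ob/Fsp27-/- arrays at 5.36 to 5.98, while Crabp1 has a single high array at 8.33.

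Aldh1a2 encodes the retinaldehyde dehydrogenase that makes most retinoic acid in the embryo and that in adults is known from mesothelium and from subsets of dendritic cells and macrophages. The ob/ob arrays read 7.54, 6.61 and 6.49, and the ob/ob/Fsp27-/- arrays read 5.56, 5.98 and 5.36. All 3 ob/ob/Fsp27-/- arrays were below all 3 ob/ob arrays and below their own array medians. The means were 6.88 ± 0.57 for ob/ob mice and 5.63 ± 0.31 for ob/ob/Fsp27-/- mice (SD, n = 3 arrays each). The RMA values were 2.37-fold lower, a log2 difference of -1.24 (SE 0.29, 95% interval -1.93 to -0.56, limma adjusted p = 0.0170). Little signal stands over background on the ob/ob/Fsp27-/- arrays at these values, so the size of the fall is less certain than its direction. Leaving out ob/ob/Fsp27-/- array 3 gave -1.11 with an adjusted p of 0.0594 and ended the call. The highest ob/ob array carried part of the size, since the difference without ob/ob array 1 was -0.92 (adjusted p = 0.0140).

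Marker genes of several cell types in GWAT moved between the genotypes alongside Aldh1a2, and in a whole-tissue sample fewer cells of a type and less RNA per cell cannot be told apart. Of 15 macrophage markers 14 were called lower and 0 higher, and their summed linear level was 27594 to 32457 in ob/ob and 6060 to 7063 in ob/ob/Fsp27-/- arrays. Adgre1, which encodes an adhesion receptor of the macrophage surface, changed by -3.21 on the log2 scale (limma adjusted p = 7.82e-06), Cd68 by -2.68 and Csf1r by -1.74. The others called were Mrc1, Msr1, Lyz2, Ctss, Itgam, Itgax, Cd14, Fcgr1, C1qa, C1qb and Mertk, and Cd163 was not called (-0.23). Of 10 dendritic cell markers 3 were called lower, Xcr1 (-0.56), Clec9a (-0.68) and Clec10a (-1.37), and the sum was 1583 to 1775 in ob/ob and 1167 to 1259 in ob/ob/Fsp27-/- arrays. That separation rested on Clec10a, since without it, a check added after the values were seen, the sums overlapped at 986 to 1063 and 891 to 997. Itgae went the other way without overlap (0.30, no call). Xcr1, Clec9a and Itgae lay below the array median on 5, 4 and 6 of the 6 arrays, where little signal stands over background. Flt3 and Zbtb46, both defining dendritic cell genes, were not called, with differences of -0.22 and 0.28. Of 12 mesothelial markers 0 were called, and the sums overlapped at 1078 to 1808 and 1083 to 1777, with Msln at -0.24, Upk3b at 0.097 and Upk1b at -0.24. ob/ob array 1, the highest for Aldh1a2, had the lowest mesothelial sum (1078) and the highest macrophage sum (32457) of the 6 arrays. Within ob/ob/Fsp27-/- mice, array 2 was the highest for Aldh1a2, for the mesothelial sum (1777) and for the macrophage sum (7063). Array 3, the lowest for Aldh1a2, had the lowest mesothelial sum of that genotype (1083), but its macrophage sum (6814) was above that of array 1 (6060). Within ob/ob mice, array 3 was the lowest for Aldh1a2 and for the macrophage sum (27594), with a mesothelial sum of 1299 between the other arrays. An order over 3 arrays cannot tell these cell types apart. The part of macrophages, dendritic cells and mesothelial cells in the fall of Aldh1a2 was not tested.

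Aldh1a1, the main retinaldehyde dehydrogenase of white adipocytes, read 9.45, 10.52 and 10.17 in ob/ob and 9.97, 10.06 and 9.53 in ob/ob/Fsp27-/- arrays. The genotypes overlapped, and the lowest and the highest values were both from ob/ob arrays. The means were 10.05 ± 0.54 and 9.85 ± 0.28 (SD, n = 3 each), a difference of -0.19 (SE 0.27, 95% interval -0.84 to 0.45, limma adjusted p = 0.648). Its interval reaches past the log2 threshold of 0.5 on the lower side, and leaving out ob/ob array 2 turned the sign, to 0.043.

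Aldh1a7 is a rodent paralog of Aldh1a1 whose protein has little known activity on retinaldehyde. Its ob/ob arrays read 8.66, 9.71 and 9.68, and its ob/ob/Fsp27-/- arrays read 9.96, 9.81 and 10.14. All ob/ob/Fsp27-/- arrays were above all ob/ob arrays, and ob/ob array 1 was about a log2 unit below the other ob/ob arrays. The difference was 0.62 (SE 0.28, 95% interval -0.039 to 1.27, limma adjusted p = 0.148), and without ob/ob array 1 it was 0.27. Aldh1a3, a retinaldehyde dehydrogenase best known from epithelia and the eye, read 7.19, 7.16 and 7.10 in ob/ob and 7.32, 7.20 and 6.85 in ob/ob/Fsp27-/- arrays. Its genotypes overlapped, with a difference of -0.029 (95% interval -0.33 to 0.27, limma adjusted p = 0.889).

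Because Aldh1a1 and Aldh1a7 are close paralogs, signal shared between their probesets cannot be told apart here, and their absolute levels were not set against each other. The log2 ratio of Aldh1a7 to Aldh1a1 within each array was compared between genotypes instead, although shared signal would enter this ratio too. The ratio was -0.79, -0.80 and -0.49 in ob/ob and -0.011, -0.26 and 0.61 in ob/ob/Fsp27-/- arrays. All ob/ob/Fsp27-/- ratios were above all ob/ob ratios. The mean ratio moved from -0.70 ± 0.18 for ob/ob to 0.11 ± 0.45 for ob/ob/Fsp27-/- arrays (SD, n = 3 each), a shift of 0.81. The exact two-sided permutation test gave p = 0.1, the smallest p that its 20 arrangements allow, so 3 arrays against 3 cannot pass 0.05 in this test. The low values of ob/ob array 1 for both genes did not carry into this ratio, which was alike in ob/ob arrays 1 and 2.

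Of the binding proteins, Rbp7 encodes an intracellular retinol-binding protein found in the adipocytes and endothelium of white fat. It read 8.79, 9.12 and 9.35 in ob/ob and 9.46, 9.43 and 9.79 in ob/ob/Fsp27-/- arrays. Every ob/ob/Fsp27-/- array was above every ob/ob array, by a small margin. The means were 9.09 ± 0.28 and 9.56 ± 0.20 (SD, n = 3 each), and the difference of 0.47 (SE 0.16, 95% interval 0.084 to 0.86) missed both thresholds, with a limma adjusted p of 0.0720. Without ob/ob array 3 it was 0.60 with an adjusted p of 0.0330, which made it a call. So did centring on housekeeping genes (0.53, adjusted p = 0.0468), which also raised the median difference of all genes, to 0.12 from 0.058. Without ob/ob array 1 the difference of Rbp7 was 0.32 (adjusted p = 0.175) and without ob/ob/Fsp27-/- array 3 it was 0.35 (adjusted p = 0.176).

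Many endothelial and adipocyte markers were also higher. Of 12 endothelial markers 7 were called higher (Cdh5, Kdr, Tie1, Emcn, Egfl7, Gpihbp1 and Flt1) and 0 lower, with Cdh5 at 0.64, Kdr at 1.40 and Pecam1 at 0.41 without a call. Their summed linear level was 4028 to 5958 in ob/ob and 8467 to 8667 in ob/ob/Fsp27-/- arrays. Of 11 white adipocyte markers 6 were called higher (Adipoq, Plin1, Lipe, Pnpla2, Dgat2 and Slc2a4) and 0 lower, with sums of 30048 to 42643 and 49226 to 51682. The differences of Lep (-0.22) and Cidec (-0.29) were negative and not called. Adipoq, which encodes adiponectin, read 10.59, 11.22 and 11.68 in ob/ob and 12.28, 12.32 and 12.48 in ob/ob/Fsp27-/- arrays (difference 1.20, limma adjusted p = 0.0109). ob/ob array 1, the lowest for Adipoq and for the adipocyte and endothelial sums, was also the lowest of the 6 arrays for Aldh1a1, Aldh1a7 and Rbp7. The part of these cell types in the values of Rbp7 and Aldh1a7 was not tested.

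Crabp1 and Crabp2 encode the cellular retinoic acid-binding proteins, of which the first is tied to retinoic acid breakdown and the second hands retinoic acid to its receptors. Crabp1 read 6.66, 6.95 and 6.79 in ob/ob and 8.33, 6.74 and 6.73 in ob/ob/Fsp27-/- arrays. A single array, ob/ob/Fsp27-/- array 1, was high, and the other 5 lay within 6.66 to 6.95. The difference of 0.46 (SE 0.41, 95% interval -0.50 to 1.42, limma adjusted p = 0.453) became -0.069 without that array. Some genes of epithelial cells, chosen after their values were seen, were also highest on it. Krt8 read 8.84 there and 6.15 to 7.43 on the other 5 arrays, Krt18 read 7.59 there, and Adam7, an epididymis gene, read 5.90 there and 3.85 to 4.61 elsewhere. Most genes of these lists were not, since 3 of 12 mesothelial and 3 of 9 epididymis markers had their highest value on that array, and Krt7 read 6.11 there and up to 6.26 elsewhere. The 9 measured epididymis markers were nevertheless below the array median on all 6 arrays and 0 were called, with sums of 201 to 208 in ob/ob and 191 to 261 in ob/ob/Fsp27-/- arrays, and Lcn5, Lcn8 and Lcn9 differed by 0.23, 0.055 and -0.0052. The part of such cells in the Crabp1 value was not tested.

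Crabp2 was below the array median on all 6 arrays, where little signal stands over background. It read 4.97, 4.77 and 4.77 in ob/ob and 5.02, 5.34 and 5.02 in ob/ob/Fsp27-/- arrays. The genotypes did not overlap, by a margin that was smaller than the spread within either, and the difference was 0.29 (SE 0.12, 95% interval 0.016 to 0.57, limma adjusted p = 0.109).

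Stra6, the membrane receptor that takes up retinol from its plasma carrier, read 5.92, 5.88 and 5.9995 in ob/ob and 6.22, 6.03 and 6.05 in ob/ob/Fsp27-/- arrays. It lay below the array median on 4 of the 6 arrays, and the genotypes did not overlap. The difference was 0.17 (SE 0.085, 95% interval -0.035 to 0.37, limma adjusted p = 0.199). Cyp26b1, a retinoic acid hydroxylase, read 6.07, 6.08 and 6.10 in ob/ob and 6.06, 6.29 and 6.25 in ob/ob/Fsp27-/- arrays. The genotypes overlapped, with a difference of 0.12 (SE 0.087, 95% interval -0.087 to 0.32, limma adjusted p = 0.367). The upper bounds for both genes were below the log2 difference of 0.5 that a call needed. Both lay near the array median, though, where signal over background limits precision, so these bounds hold for the RMA values only.

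**Figure D2:**
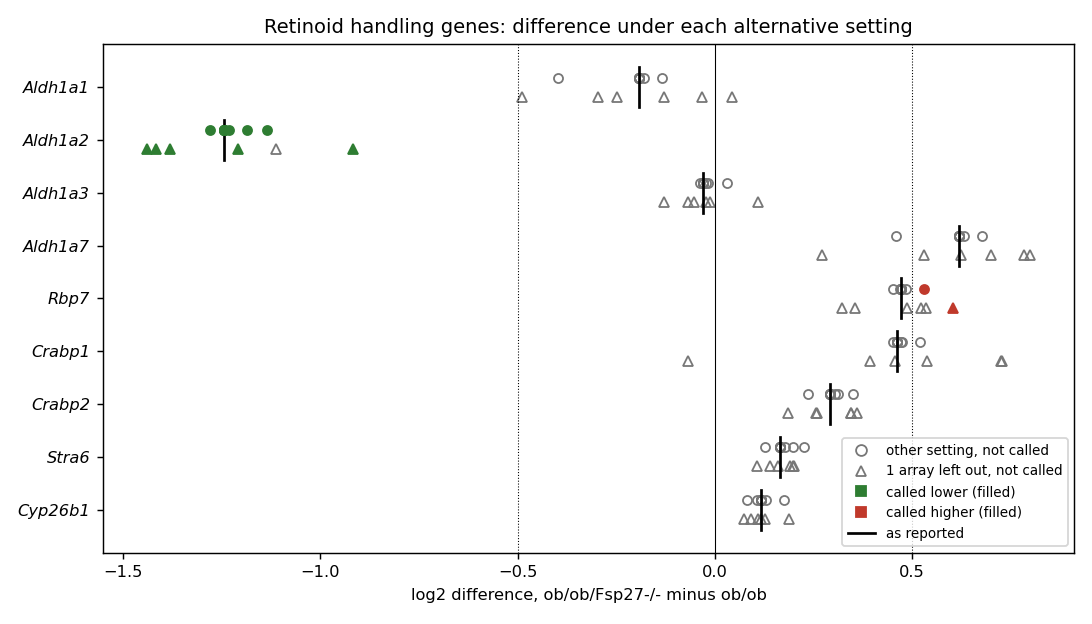
Log2 difference (horizontal axis, ob/ob/Fsp27-/- minus ob/ob) of the 9 retinoid handling genes under each alternative setting (circles) and with 1 array left out (triangles), filled where the gene was called, with a black bar at the reported value and dotted lines at 0.5 in size. Aldh1a2 runs from -1.44 to -0.92 and is the 1 gene called in most settings, and Crabp1 falls to -0.069 without its high array.

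The wider retinoid pathway was described from lists that held 62 further measured genes, also chosen with earlier results of these data known. Of the 62, 15 were called higher in ob/ob/Fsp27-/- mice and 5 were called lower (32.3%, beside 20.4% of all genes) and 42 were not called. Their median difference was 0.17, beside 0.058 over all genes.

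**Figure D3:**
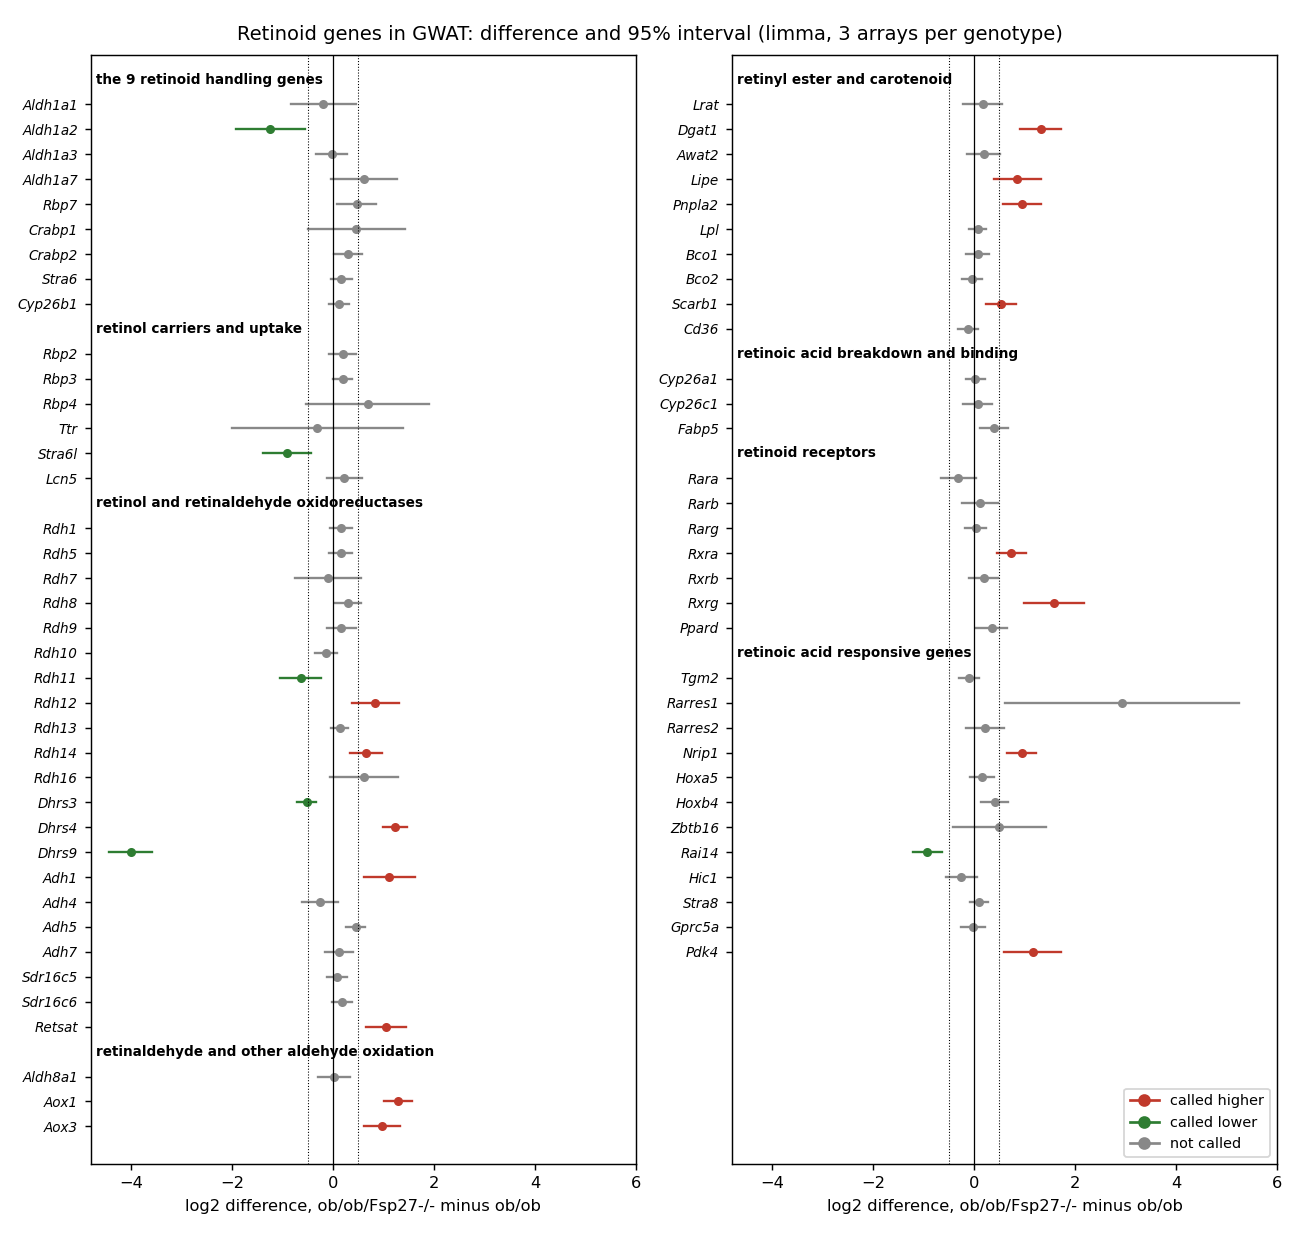
Log2 difference (horizontal axis, ob/ob/Fsp27-/- minus ob/ob) with its 95% interval from limma (3 arrays per genotype) for the 9 retinoid handling genes and 62 further retinoid genes, grouped by role and coloured where called, with dotted lines at 0.5 in size. Dhrs9 stands at -4.01, and the other called genes run from -1.24 (Aldh1a2) to 1.58 (Rxrg).

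Of 6 measured genes for retinol carriers and uptake, 1 was called lower and 0 higher, with a median difference of 0.19. The gene called was Stra6l, which encodes a second receptor for the retinol carrier. It read 7.24, 6.67 and 6.49 in ob/ob and 6.05, 5.92 and 5.69 in ob/ob/Fsp27-/- arrays (difference -0.91, SE 0.20, limma adjusted p = 0.0129). All 3 ob/ob/Fsp27-/- arrays were below their own array medians for Stra6l, so the size of its fall is less certain. Rbp4, the plasma retinol carrier that fat also secretes, read 8.86, 10.54 and 11.10 in ob/ob and 10.60, 10.96 and 10.99 in ob/ob/Fsp27-/- arrays. The wide ob/ob spread, again with array 1 lowest, left Rbp4 with a difference of 0.68 (SE 0.52, limma adjusted p = 0.378), which was 0.033 without ob/ob array 1 and 1.15 without ob/ob array 3.

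Of the 21 retinol and retinaldehyde oxidoreductases, 5 were called higher and 3 lower (median difference 0.16). Dhrs9, a microsomal retinol and hydroxysteroid dehydrogenase that is also used as a macrophage marker, showed the largest difference among the 9 members and the 62 further genes. It read 10.06, 9.84 and 9.56 in ob/ob and 5.62, 5.66 and 6.15 in ob/ob/Fsp27-/- arrays. The RMA values were 16.1-fold lower, a log2 difference of -4.01 (SE 0.18, limma adjusted p = 3.19e-05), and the gene was called under all 19 alternatives. On ob/ob/Fsp27-/- arrays 1 and 2 it was below the array median, so the exact fold is uncertain. The macrophage markers described above moved the same way, by a median of -2.09 on the log2 scale, and their part in the Dhrs9 value was not tested.

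The other genes called lower were Dhrs3 and Rdh11, both of which encode reductases that turn retinaldehyde back into retinol. Dhrs3 read 11.63, 11.59 and 11.62 in ob/ob and 10.97, 11.13 and 11.16 in ob/ob/Fsp27-/- arrays (difference -0.53, SE 0.082, limma adjusted p = 0.00323). Its genotypes were well apart beside the spread within each, but the difference is close to the fold threshold, and it was -0.47 and no call both without ob/ob/Fsp27-/- array 1 and with centring on housekeeping genes. Rdh11 differed by -0.64 (limma adjusted p = 0.0277), and its call ended without any 1 of ob/ob arrays 1, 2 or 3 or ob/ob/Fsp27-/- array 2, with differences of -0.69, -0.59, -0.65 and -0.44. Rdh10, which oxidizes retinol to retinaldehyde, was not called (-0.14, limma adjusted p = 0.316).

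The genes called higher in this list were Adh1, Dhrs4, Retsat, Rdh14 and Rdh12. Adh1, a cytosolic alcohol dehydrogenase that oxidizes retinol, read 10.26, 11.15 and 10.76 in ob/ob and 11.93, 11.67 and 11.92 in ob/ob/Fsp27-/- arrays (difference 1.12, SE 0.21, limma adjusted p = 0.0076). Dhrs4, a peroxisomal reductase of retinaldehyde and other carbonyls, differed by 1.23 (SE 0.10, limma adjusted p = 0.000245). Retsat, the retinol saturase of adipocytes, differed by 1.04 (SE 0.17, limma adjusted p = 0.0037). Rdh14 (0.65) and Rdh12 (0.84) were smaller, and Rdh12 was below the array median on all 6 arrays. Adh5, whose enzyme acts mainly on formaldehyde bound to glutathione, had an adjusted p of 0.0055 but a difference of 0.45, under the fold threshold.

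Of 3 genes for other aldehyde oxidation, 2 were called higher and 0 lower, with a median difference of 0.96. Aox1, a cytosolic aldehyde oxidase that accepts retinaldehyde among other substrates, read 8.69, 8.99 and 9.11 in ob/ob and 10.20, 10.30 and 10.16 in ob/ob/Fsp27-/- arrays (difference 1.29, SE 0.12, limma adjusted p = 0.000365). Its neighbour in the same family, Aox3, differed by 0.96 (SE 0.15, limma adjusted p = 0.00343) and was below the array median on all 3 ob/ob arrays.

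Of 10 genes for retinyl esters and carotenoids, 4 were called higher and 0 lower (median difference 0.18). Dgat1, which esterifies diacylglycerol and also retinol, rose by 1.31 (SE 0.17, limma adjusted p = 0.00147). Pnpla2 and Lipe, the lipases of adipocyte triglyceride and retinyl ester stores, rose by 0.95 and 0.85, and Scarb1, a lipoprotein receptor that takes up carotenoids, by 0.53. The call of Lipe was lost without ob/ob array 2 (0.88, adjusted p = 0.0513) and without ob/ob/Fsp27-/- arrays 2 (0.82) or 3 (0.86). The call of Scarb1 was lost without ob/ob arrays 1 (0.44) or 2 (0.52) and without ob/ob/Fsp27-/- arrays 2 (0.54) or 3 (0.43). Lipe and Pnpla2 are also on the white adipocyte list, which rose in 6 of its 11 measured genes. Lrat, the retinol acyltransferase of liver and eye, was not called (0.17, limma adjusted p = 0.503).

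Of 3 further genes for breakdown and binding of retinoic acid, 0 were called by limma and 1 had an unadjusted p under 0.05. That gene was Fabp5, a fatty acid carrier that also binds retinoic acid, at 0.39 with an adjusted p of 0.0433. Its difference was under the fold threshold and reached 0.51, a call, without ob/ob/Fsp27-/- array 2. Cyp26a1, the best known target of retinoic acid, was below the array median on all 6 arrays and differed by 0.021 (limma adjusted p = 0.874).

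Of 7 receptor genes, 2 were called higher and 0 lower (median difference 0.19). Rxrg, an RXR form found in adipose tissue and muscle, read 6.74, 7.23 and 7.69 in ob/ob and 8.50, 8.81 and 9.09 in ob/ob/Fsp27-/- arrays (difference 1.58, SE 0.25, limma adjusted p = 0.00349). Rxra, the general partner of nuclear receptors, differed by 0.74 (SE 0.12, limma adjusted p = 0.00393). The third RXR gene, Rxrb, was not called (0.19). The retinoic acid receptors Rara (-0.31), Rarb (0.11) and Rarg (0.032) were not called, with adjusted p of 0.168, 0.636 and 0.818.

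Of 16 measured genes listed as responsive to retinoic acid, 2 were called higher and 2 lower, and the median difference was 0.13. This list shares Rarb, Cyp26a1, Dhrs3 and Lrat with the lists above, and Dhrs3 is 1 of the 2 called lower. The other gene called lower was Rai14, a cytoskeletal protein gene first found as induced by retinoic acid (-0.93, SE 0.12, limma adjusted p = 0.00147). Those called higher were Nrip1, a nuclear receptor corepressor of adipocytes (0.94, SE 0.12), and Pdk4, a kinase that inhibits pyruvate dehydrogenase (1.16, SE 0.24), and both also respond to signals other than retinoic acid. Hoxb4 (0.41, adjusted p = 0.0323) was under the fold threshold and was called without ob/ob/Fsp27-/- array 3 (0.52). Rarres1 read 5.06, 4.71 and 4.88 in ob/ob and 8.19, 5.38 and 9.85 in ob/ob/Fsp27-/- arrays, so all ob/ob/Fsp27-/- arrays were higher but spread widely. Its difference of 2.92 (SE 0.99, limma adjusted p = 0.0644) was no call. It was 4.14 (adjusted p = 0.00341) without ob/ob/Fsp27-/- array 2 and 1.90 (adjusted p = 0.122) without array 3, and it was also called with array weights and with either filter on low values (adjusted p of 0.0292 to 0.0483).

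Stromal progenitor markers, which many cells of fat outside the adipocyte share, also moved between the genotypes. Of 11 measured 4 were called lower, Pdgfra, Col1a1, Col3a1 and Thy1, and 0 higher, with sums of 12998 to 13516 in ob/ob and 8540 to 9950 in ob/ob/Fsp27-/- arrays. Pdgfrb (-0.44) and Dpp4 (-0.30) were not called. The part of stromal progenitor cells in the calls of the wider retinoid genes was not tested.

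**Figure D4:**
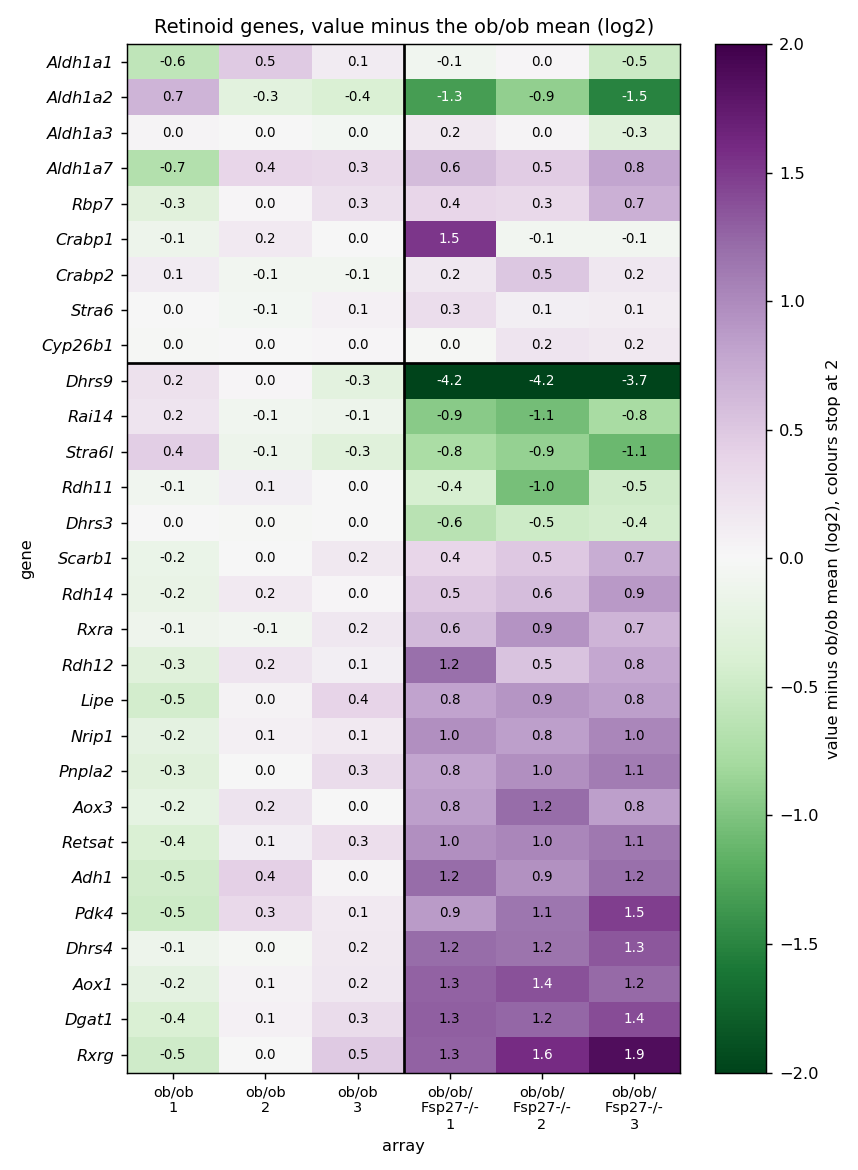
Value on each array minus the ob/ob mean (log2, colour scale stopping at 2 in size) for the 9 retinoid handling genes above the line and the 20 called genes of the wider pathway below it, with arrays 1 to 3 of each genotype in columns. The called genes, shown because they were called on these same arrays, differ from the ob/ob mean in 1 direction on all 3 ob/ob/Fsp27-/- arrays. Aldh1a2 does so too, and so do Aldh1a7, Rbp7, Crabp2 and Stra6, which were not called. Crabp1 lies far from the ob/ob mean on 1 array only.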

How the data were processed

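RNA from the GWAT of both genotypes was amplified in 2 rounds per the labels and hybridized to 6 arrays. The authors adjusted the background, normalized by quantiles and summarized probes with RMA, and deposited the values on the log2 scale. For their tools, the sources used here give no versions. Each array held pooled RNA of mice per the methods, which the labels do not mention, so p-values measure the spread between these 3 arrays per genotype.

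Of 34760 probesets, 22961 with a symbol were tested with limma 3.58.1 in R 4.3.3 (lmFit, eBayes, no covariates, Benjamini-Hochberg adjustment). Genes were counted over 21640 probesets with 1 symbol. The filter of the study on detection above background was not repeated. The columns of the table all belong to the 6 arrays, and the labels give no batch or scan date. Promoter windows came from RefSeq (GRCm38.p6) and were searched with python 3.11.15, and figures were drawn with matplotlib 3.10.9.

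The members and lists were chosen with earlier results of these data known. Named genes were the 9 members, the retinoid genes called or with calls that differed between alternatives, the RAR and RXR receptors and a few genes of single steps, and of marker lists those called and the first 3 listed. Cd163, Itgae, Lep, Krt7, Krt8, Krt18 and Adam7 were named after their values were seen, and Cidec as the targeted gene. The procedure was tested on simulated data. The alternatives were other scalings (medians of the arrays, housekeeping genes, cyclic loess), filters on low values, testing all probesets, other limma settings (trend, robust, array weights), other fold thresholds, treat, the mean of a gene's probesets and leaving out each array.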

Additional observations from a re-analysis of the deposited data

How the results depend on the processing

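Aldh1a2 was lower in all 19 alternatives, with differences of -1.44 to -0.92, and was called in 17. The call ended without ob/ob/Fsp27-/- array 3 (adjusted p = 0.0594) and under treat, which tests against a log2 difference of 0.5 (adjusted p = 0.183). The count of members called lower was thus 0 under treat and 0 to 1 when single arrays were left out. The count called higher was 1 with centring on housekeeping genes (Rbp7) and 0 to 1 when single arrays were left out. Aldh1a1, Aldh1a3, Aldh1a7, Crabp1, Crabp2, Stra6 and Cyp26b1 were called in 0 alternatives, which were 18 for Crabp2 and Stra6, below the filter at the median of all values.

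Signs turned for small differences that were not called. With single arrays left out, the ranges were -0.49 to 0.043 for Aldh1a1, -0.13 to 0.11 for Aldh1a3, -0.069 to 0.73 for Crabp1, -0.028 to 0.31 for Lrat, -0.0099 to 0.068 for Cyp26a1 and -0.030 to 0.077 for Rarg. Aldh1a3 was 0.029 with housekeeping centring, and Cyp26a1 was -0.030 with cyclic loess and -0.0069 with array weights. The cause was not tested.

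Of the 62 further genes, 13 to 15 were called higher and 4 to 5 lower with single arrays left out. A log2 threshold of 1 left 7 higher and 1 lower, and treat left 4 and 1, since both ask for larger differences (1607 and 1505 of all genes called, from 4068). Without a fold threshold 5988 genes were called. Centring on housekeeping genes made 53.7% of all calls higher, from 47%, and moved the median of all genes to 0.12 from 0.058. The housekeeping list held 15 genes, of which 11 were measured, with 1 called higher and 1 lower. Their median difference before centring was -0.22. The genotypes did not overlap for 8 of the 11 (46% of all genes), 6 with lower and 2 with higher values in ob/ob/Fsp27-/- mice. The centring thus rests on genes that were not stable between the genotypes. No paired analysis was possible because the labels give the arrays no shared numbers. Precision is limited by 3 pools per genotype and, for values near the array median or below it, by signal over background. Such values include those of Crabp2, Stra6 and Cyp26b1, the ob/ob/Fsp27-/- arrays of Aldh1a2 and Stra6l, and the ob/ob arrays of Aox3.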
